A study of Mus musculus with 2 samples.

Results

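The PYHIN genes are a family of interferon-inducible genes that lie side by side on the distal part of mouse chromosome 1. The 6 genes described here, Ifi202b, Ifi203, Ifi204, Ifi207, Mndal and Aim2, were taken by name from a table of 54680 loci, and each name stood on 1 locus. They were chosen with their difference between the libraries in view, so their ratios are a description. Total RNA was sequenced from CT26, a cell line grown from a mouse colon tumour, with 1 library in each of 2 groups. Cells labelled shSetdb1 had been infected with a lentivirus whose short hairpin RNA targets Setdb1. SETDB1 is an enzyme that methylates lysine 9 of histone H3 and is known for silencing endogenous retroviruses. The control cells, labelled shCtrl and wild type, received virus with the empty vector. RNA was taken on day 6 from both cultures, which shared 1 medium, when shSetdb1 cells had changed their phenotype and are called differentiated in the labels. The labels name no clone, hairpin sequence or promoter of the vector.

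PYHIN proteins are built from a pyrin domain, which binds other pyrin domains, and a HIN domain, which binds double-stranded DNA with little regard to its sequence. AIM2 senses DNA in the cytosol and, through the adaptor ASC encoded by Pycard, forms an inflammasome that activates caspase-1. The protein of Ifi204 has been described as a DNA sensor acting through STING, and that of Ifi202b, which has no pyrin domain, as an inhibitor of AIM2. Type I interferon induces many genes of the family through a complex that holds STAT2 and IRF9 and binds interferon-stimulated response elements. Gene content and expression of the cluster are known to differ between inbred mouse strains. CT26 cells came from a BALB/c mouse, whereas the reference genome is that of another strain.

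Upstream sequences are shown first because interferon is known to act on this family through an element in its promoters. RefSeq (GRCm38.p6) gave promoter windows of 300 bases, from 250 before to 50 after an annotated start, for 5 of the 6 genes and for 7 of the 8 other PYHIN genes found in the table. These starts need not be those of the gene models that were counted. The starts printed for Mndal (173880187) and Aim2 (173420604) lay inside the counted models. Those of Ifi202b (173982844) and Ifi207 (173741809) lay outside them. Which starts the cells used was not tested. The core of the interferon-stimulated response element (GAAA, any 2 bases, GAAA) was searched on both strands, and so were the letters TTCNNNGAA, the core of the gamma-activated site. The 160 bases before the start follow for the 5 listed genes with a window, which differ in these letters, and for the neighbouring family gene Ifi211. Capitals mark a match to either core. The windows are chr1:173741810-173741969 for Ifi207, chr1:173880188-173880347 for Mndal, chr1:173942493-173942652 for Ifi203, chr1:173913047-173913206 for Ifi211 and chr1:173982845-173983004 for Ifi202b, all on the minus strand, and chr1:173420444-173420603 on the plus strand for Aim2.
Ifi207: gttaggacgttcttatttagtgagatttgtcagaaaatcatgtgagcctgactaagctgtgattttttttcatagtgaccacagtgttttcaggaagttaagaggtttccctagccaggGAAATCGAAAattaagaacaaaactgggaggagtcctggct
Mndal: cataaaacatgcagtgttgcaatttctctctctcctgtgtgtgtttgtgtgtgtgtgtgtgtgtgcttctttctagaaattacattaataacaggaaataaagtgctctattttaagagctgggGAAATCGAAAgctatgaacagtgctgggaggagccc
Ifi203: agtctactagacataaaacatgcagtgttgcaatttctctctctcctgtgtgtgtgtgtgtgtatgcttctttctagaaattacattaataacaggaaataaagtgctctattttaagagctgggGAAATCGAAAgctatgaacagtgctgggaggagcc
Ifi211: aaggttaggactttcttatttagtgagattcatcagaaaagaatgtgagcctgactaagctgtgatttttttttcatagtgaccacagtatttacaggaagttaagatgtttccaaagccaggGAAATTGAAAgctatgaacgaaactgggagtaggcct
Ifi202b: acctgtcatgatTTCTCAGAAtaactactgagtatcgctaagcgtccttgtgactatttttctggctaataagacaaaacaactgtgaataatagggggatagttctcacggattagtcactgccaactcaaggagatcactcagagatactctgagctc
Aim2: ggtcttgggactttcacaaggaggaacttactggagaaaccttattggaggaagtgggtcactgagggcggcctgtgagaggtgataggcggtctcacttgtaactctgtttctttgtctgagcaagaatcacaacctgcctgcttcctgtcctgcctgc

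The response element core was found in windows of 3 of the 5 listed genes, Ifi203, Ifi207 and Mndal, and in those of 9 of 12 PYHIN genes with a window. Of all 27025 genes in the RefSeq table, 3.99% had a window with it (3.44% of 32851 windows), and so had 13 of the 22 type I interferon response genes with a window (59.1%). In all 9 genes a match lay on the strand of the gene, with its first base at position -134 to -35 from the start. The same 10 letters, GAAATCGAAA, made up that match in 7 of the 9 genes, and GAAATTGAAA in Ifi205 and Ifi211. GAAATCGAAA was picked after the windows were read, and it occurs in 16 of the 32851 windows, of which 7 belong to PYHIN genes. Ifi203 had a further window with no match, and Mndal had a further window with a match on the opposite strand, TTTCTCTTTC. Neither core was found in the window of Aim2. Ifi202b held a match to the gamma-activated site core, TTCTCAGAA, which 8.30% of all windows hold in some form. The printed windows of Ifi203 and Mndal differed by 23 edits over 160 bases and those of Ifi207 and Ifi211 by 25, whereas the other 13 pairs differed by 69 to 93. Edits were counted from end to end, so a shift between windows, as between those of Ifi203 and Mndal, adds to them. A match is a description of letters in the reference strain, not evidence of a bound factor. Whether CT26 cells hold the same letters was not tested.

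Reads recovered over all loci of the table were of a like number, 18421604 for shCtrl and 19045830 for shSetdb1. These sums are the library totals used here, and not counts of all reads sequenced. Setdb1 was at 10.4 FPKM in shCtrl (1340 reads) and 2.47 FPKM in shSetdb1 (317 reads), a read ratio of 0.229 (0.202 to 0.259). FPKM is the read count scaled by gene length and sequencing depth, and levels of different genes are compared on this scale only. With 1 library per group the differences have no replicate check and describe these libraries. A read ratio is that of the reads in shSetdb1 over shCtrl, each divided by its library total. Its interval is 95% exact binomial (Clopper-Pearson), and that of a level is 95% exact Poisson. Both cover counting error only, and not the spread between cultures. Reads copied by PCR are not independent molecules, so both may be too narrow even for counting error. Of the 11 colon epithelial markers, Krt18 (1016 and 2423 reads), Krt20 (183 and 1285) and Krt19 (1 and 53) reached 1 FPKM, whereas Epcam, Cdh1 and Lgr5 had 0 reads in both libraries and Krt8 had 7 and 8. Of the 9 fibroblast and mesenchymal markers, 7 reached 1 FPKM, among them Vim and Fn1. In bulk RNA, more cells expressing a gene and more RNA per cell cannot be told apart.

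All 6 PYHIN genes were more abundant in shSetdb1, at low levels in both. All 6 reached 1 FPKM in at least 1 library. Levels ran from 0.577 to 2.99 FPKM in shCtrl and from 3.02 to 9.09 FPKM in shSetdb1, and the Poisson intervals of the lowest in shSetdb1, Aim2, and the highest in shCtrl, Ifi202b, overlapped. The reads of the 6 genes added up to 914 in shCtrl and 2205 in shSetdb1, a read ratio of 2.33 (2.16 to 2.52). On log2(FPKM + 1), with a pseudocount of 1, the median log2 ratio was 0.95, against -0.00039 over the 10671 genes of the table that reached 1 FPKM in at least 1 library. The median read ratio was 2.19 against 0.967 over those genes.

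Counts of the genes depend on the rule for a call. On the log2(FPKM + 1) scale, which understates ratios of low genes, 3 of the 6 were at least 2-fold higher, namely Ifi207, Ifi202b and Ifi204, where 6.81% of all 10671 genes were. By a read ratio of 2 or more, which added Ifi203, 4 of 6 were called, against 10.3% of all genes. The counting interval of the read ratio lay above 1 for 6 of 6, against 35.2%, and below 1 for 0 of 6, against 40.6%. All 6 had a log2 ratio above 0, as had 49.6% of all genes. The genes were chosen on this contrast, so these shares stand beside one another only as description.

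**Figure D1:**
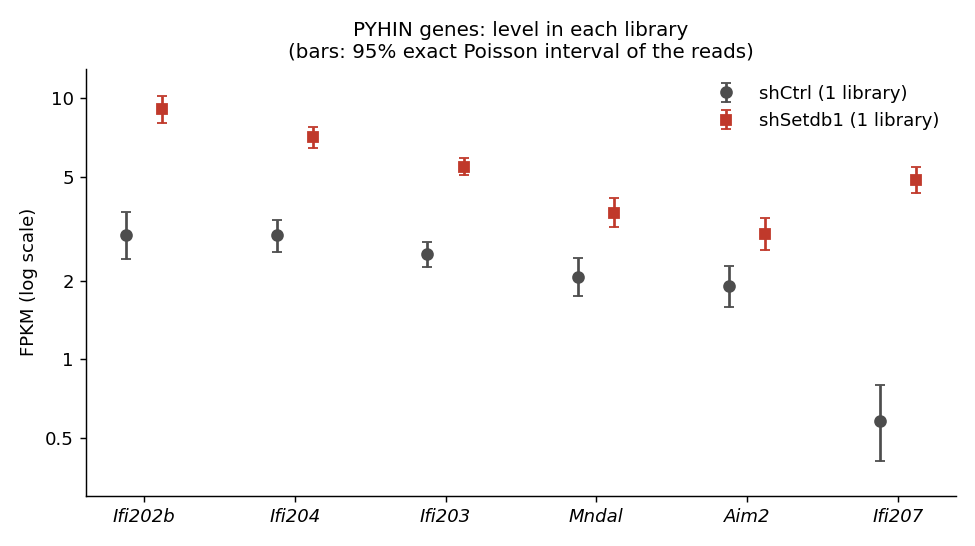
Level of each of the 6 PYHIN genes in FPKM (log axis) in shCtrl (circles) and shSetdb1 (squares), with 95% exact Poisson intervals. Ifi202b has the highest value in both libraries, though in shCtrl its interval overlaps that of Ifi204. Ifi207 moves from 0.577 FPKM, the lowest level, to 4.87 FPKM.

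Ifi207 had the largest ratio of the 6. This gene, annotated in the authors' table with a pyrin and a HIN domain, sits on chromosome 1 (minus strand, 173723427 to 173741747). Its level was 0.577 FPKM (37 reads) in shCtrl and 4.87 FPKM (312 reads) in shSetdb1. On log2(FPKM + 1) the ratio was 1.90, and that of the reads was 8.16 (5.79 to 11.8). Its interval overlapped that of none of the other 5 genes. Of the 10671 genes, 1.32% had a higher log2 ratio. In shCtrl its interval lay below those of the other 5 genes, while in shSetdb1 it overlapped that of Ifi203.

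Ifi202b encodes p202, the HIN protein without a pyrin domain, and lies on the minus strand from 173962568 to 173982744. It had 2.99 FPKM (95 reads) in shCtrl and 9.09 FPKM (289 reads) in shSetdb1, a difference of 6.10 FPKM that was the largest of the 6. Its log2 ratio was 1.34 and its read ratio 2.94 (2.33 to 3.75). The interval overlapped those of Ifi204 and Ifi203 and not those of Mndal, Aim2 and Ifi207.

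Ifi204 encodes p204, a protein with a pyrin and HIN domains, on the minus strand from 173747293 to 173766943. Its level was 2.98 FPKM (199 reads) in shCtrl and 7.08 FPKM (472 reads) in shSetdb1. The log2 ratio was 1.02, just past 2-fold, and it was 0.98 with own read totals and 0.94 with upper-quartile scaling, which ends the call. The read ratio was 2.29 (1.94 to 2.72). In the authors' table Ifi204 and Ifi207 carry the same Swiss-Prot entry, P0DOV2, as do 3 pseudogene loci, Gm18445, Gm18752 and Gm7897. Those 3 loci had 2 reads in shCtrl and 0 in shSetdb1. With the reads of all 5 loci added up, the counts were 238 and 784, and the read ratio was 3.19 (2.75 to 3.70). This lay above the interval of Ifi204 and below that of Ifi207, each taken alone.

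Aim2, the inflammasome sensor, had the smallest ratio of the 6. It lies on the plus strand from 173350879 to 173466040, apart from the other listed genes. Its level was 1.91 FPKM (125 reads) in shCtrl and 3.02 FPKM (198 reads) in shSetdb1. Its ratio was 0.47 on log2(FPKM + 1) and 1.53 in reads (1.22 to 1.93), and 21.2% of the 10671 genes had a higher log2 ratio. Its counting interval overlapped those of Ifi203 and Mndal and not those of the other 3.

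Ifi203 and Mndal encode nuclear proteins of the family with a pyrin and a HIN domain. Ifi203 (minus strand, 173920407 to 173942672) had the most reads of the 6, 317 in shCtrl and 686 in shSetdb1. Its level was 2.52 and 5.46 FPKM, its log2 ratio 0.87 and its read ratio 2.09 (1.83 to 2.40). Mndal (minus strand, 173849126 to 173942491) was at 2.07 FPKM (141 reads) and 3.65 FPKM (248 reads). Its log2 ratio was 0.60 and its read ratio 1.70 (1.38 to 2.11). The annotated model of Mndal contains that of Ifi211, with 0 exon bases in common, and overlaps most of that of Ifi203, with 37 exon bases in common. The reads of Ifi203, Mndal and Ifi211 added up to 500 and 1022, a read ratio of 1.98 (1.77 to 2.20). Reads of Ifi203 and its pseudogene Ifi203-ps, which share Swiss-Prot entry O35368, added up to 327 and 714, a read ratio of 2.11 (1.85 to 2.41).

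**Figure D2:**
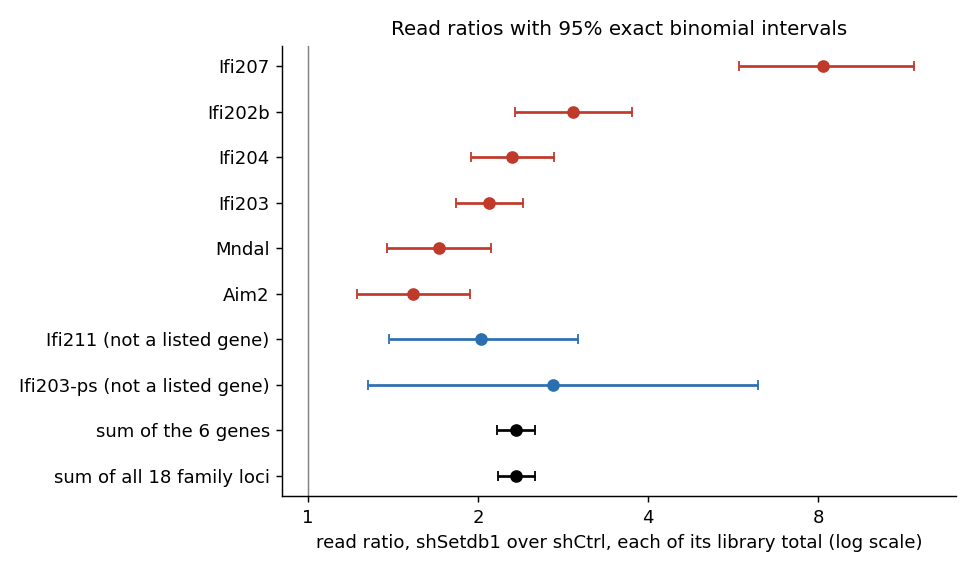
Read ratio of shSetdb1 over shCtrl, each relative to its library total, for the 6 genes, for Ifi211 and Ifi203-ps, and for sums over the 6 genes and over all 18 family loci (log axis; bars are 95% exact binomial intervals). The interval of Ifi207, from 5.79 to 11.8, stands to the right of those of the other 5 listed genes.

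Apart from Ifi207, the 6 genes had the same order of levels in both libraries. In shCtrl it ran Ifi202b, Ifi204, Ifi203, Mndal, Aim2 and Ifi207, and each gene's Poisson interval overlapped that of the next, except between Aim2 and Ifi207. In shSetdb1 it ran Ifi202b, Ifi204, Ifi203, Ifi207, Mndal and Aim2. There the intervals of Ifi203 and Ifi207 and those of Mndal and Aim2 overlapped, and those of the other 3 neighbouring pairs did not. Of the 15 pairs of genes, 8 had read ratio intervals that did not overlap, and 5 of these pairs involved Ifi207.

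The make-up of the summed reads differed accordingly. Ifi207 took 4.05% (2.87 to 5.54) of the 914 reads in shCtrl and 14.1% (12.7 to 15.7) of the 2205 reads in shSetdb1, with exact binomial intervals. Aim2 took 13.7% (11.5 to 16.1) and 8.98% (7.82 to 10.3), and Mndal 15.4% (13.1 to 17.9) and 11.2% (9.96 to 12.6). The shares of Ifi204, 21.8% and 21.4%, Ifi203, 34.7% and 31.1%, and Ifi202b, 10.4% and 13.1%, had overlapping intervals in the libraries. The shares add up to a fixed total, so a larger share of Ifi207 lowers the others. A share of reads also depends on gene length. Of the summed FPKM, Ifi202b held 22.9% in shCtrl and 27.4% in shSetdb1, Ifi203 19.3% and 16.5%, and Ifi207 4.42% and 14.7%.

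**Figure D3:**
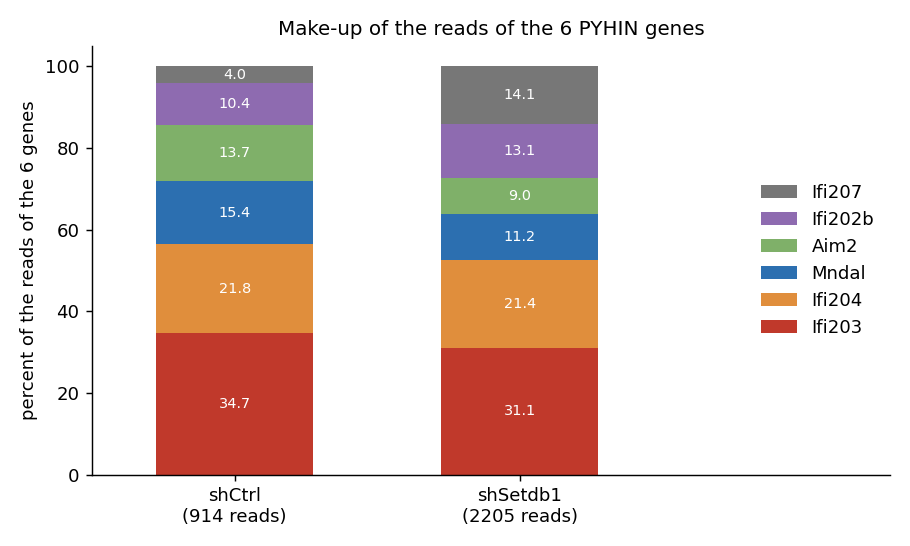
Share of the summed reads of the 6 PYHIN genes taken by each gene, in percent, in shCtrl (914 reads) and shSetdb1 (2205 reads). The segment of Ifi207 is 4.05% in shCtrl and 14.1% in shSetdb1, and those of Aim2 and Mndal are smaller in shSetdb1.

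The 8 other PYHIN genes of the cluster found in the table had few or no reads, apart from Ifi211. Ifi211 was the only one to reach 1 FPKM, at 1.26 FPKM (42 reads) in shCtrl and 2.63 FPKM (88 reads) in shSetdb1, with a read ratio of 2.03 (1.39 to 3.0). The pseudogene Ifi203-ps had 10 and 28 reads, a read ratio of 2.71 (1.28 to 6.25). Ifi205 and Ifi208 had 0 reads in shCtrl, where a floor of 3 reads is 0.0383 and 0.0305 FPKM and the exact Poisson upper limits are 0.0471 and 0.0375 FPKM. In shSetdb1 they had 11 and 10 reads, at least 3.55-fold and at least 3.22-fold higher against that floor. The floor leaves out the counting error of the shSetdb1 reads, and the counting intervals of the read ratios start lower, at 2.43 and 2.17. Ifi209 had 2 reads and 1 read, and Ifi206, Ifi213 and Ifi214 had 0 in both libraries. Ifi206, Ifi213 and Ifi214 hold the letters GAAATCGAAA before their starts, as do Ifi203, Ifi207, Ifi208 and Mndal, so genes with this match ranged from 0 reads in both libraries to 5.46 FPKM. Among the listed genes, those with the response element core in their window had read ratios of 8.16, 2.09 and 1.70. Those without it there, Ifi202b and Aim2, had 2.94 and 1.53. The windows are of the reference strain, so whether CT26 cells hold or lack the same letters was not tested.

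Loci around the cluster that do not belong to the family were close to 0 in both libraries. The 14 PYHIN genes span 681 kb, from 173350879 to 174031810. Within this span and 500 kb on each side the table holds 42 other loci, 26 of them olfactory receptor loci. Their reads added up to 7 in shCtrl and 10 in shSetdb1, 5 of the 42 had any read, and none was above 0.0667 FPKM. None of the 42 was therefore called at 2-fold.

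**Figure D4:**
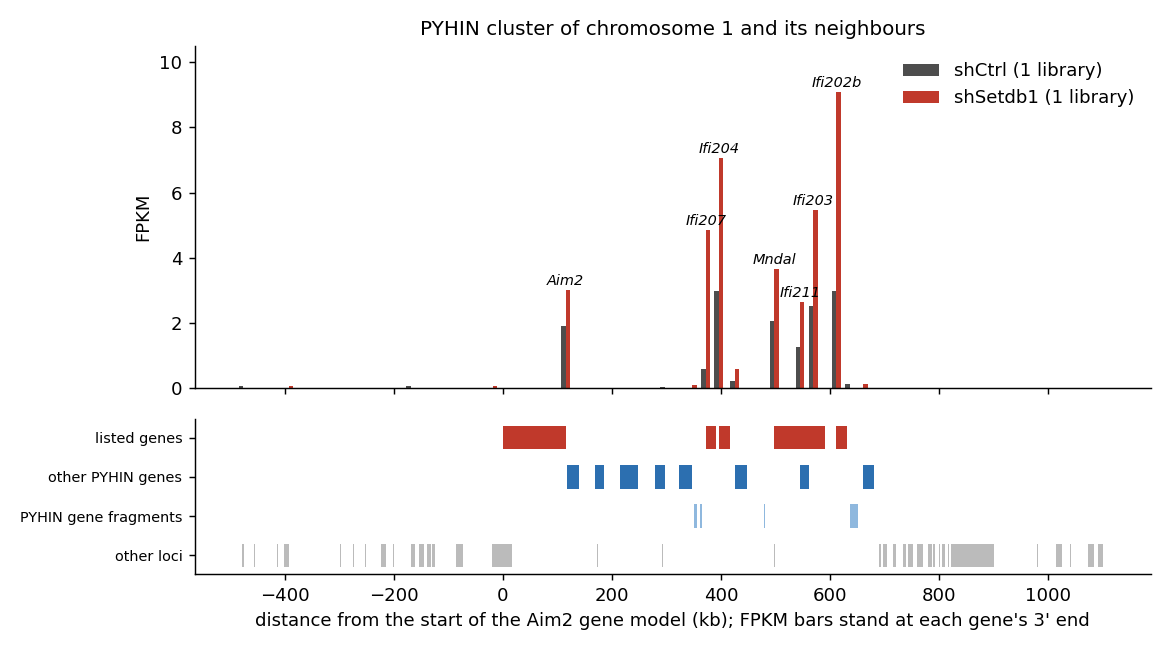
Upper panel: FPKM of every locus in the PYHIN cluster and 500 kb on each side, with 1 bar per library at the 3' end of each gene, over the distance from the start of the Aim2 gene model in kb. Lower panel: extent of the gene models. The 6 listed genes and Ifi211 stand above 1 FPKM in both libraries, except Ifi207 in shCtrl at 0.577 FPKM. Ifi203-ps reaches 0.585 FPKM in shSetdb1, and the other loci lie lower.

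Since close paralogs can share reads, the annotated transcripts (GENCODE M21, same coordinates and gene lengths as the table for all 14 PYHIN genes) were cut into all words of 100 bases and of 50 bases. No 100-base word of Ifi202b or Aim2 occurs in a transcript of another of the 14 genes. Such words made up 0.263% of the words of Ifi207, 2.84% for Ifi203, 5.89% for Mndal and 10.7% for Ifi204. At 50 bases the shares were 0% for Ifi202b and Aim2, 5.39% for Ifi207, 12.2% for Ifi203, 17.7% for Mndal and 19.2% for Ifi204. Counted against all annotated transcripts, pseudogene fragments included, the 100-base share was 0.790% for Ifi207, through Gm18445, and 6.38% for Mndal, through Gm38050, and the other 4 genes kept their shares. At 50 bases it was then 7.29% for Ifi207, 12.2% for Ifi203, 19.6% for Mndal, 20.02% for Ifi204 and 0.628% for Aim2, whose words occur in Gm7871 and in genes outside the family, and it stayed at 0% for Ifi202b. Ifi211 differed from the listed genes, with 56.9% of its 100-base words and 72.8% of its 50-base words shared, mostly with Ifi205, Ifi204 and Mndal. The longest coding stretch that Ifi204 and Ifi207 have in common is shown here, because a read that lies inside it matches both genes. It has 108 bases. All 9 of its 100-base words occur in Ifi211 too, so such a read also matches Ifi211, which carries another Swiss-Prot entry, P0DOV1.
Ifi204 and Ifi207: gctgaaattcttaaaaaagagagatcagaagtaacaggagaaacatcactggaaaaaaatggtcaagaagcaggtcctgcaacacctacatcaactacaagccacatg
Ifi204 and Ifi211 have a coding stretch of 223 bases in common. The read length and the treatment of reads that match several genes are not given in the sources used here, and the words come from the reference strain, so the number of reads of these genes that could be misplaced was not tested.

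**Figure D5:**
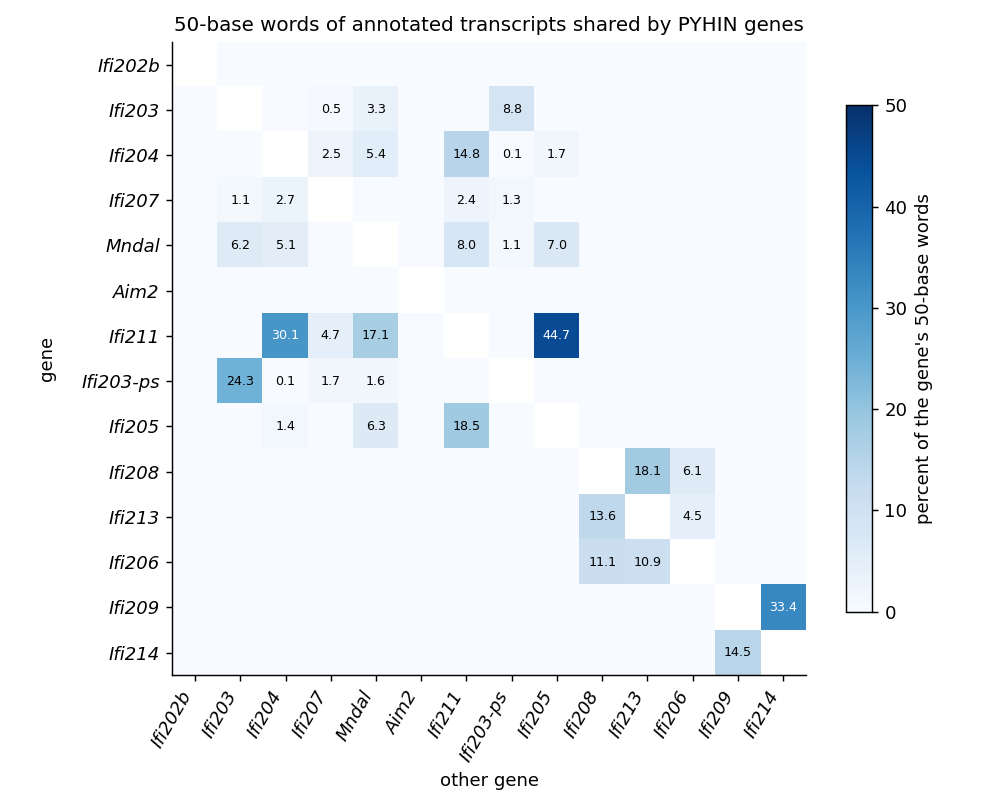
Percent of each PYHIN gene's 50-base words (rows) that also occur in annotated transcripts of another PYHIN gene (columns), with printed values where above 0. Ifi202b and Aim2 share no such word with another of these genes, and Ifi211 shares most, 44.7% with Ifi205 and 30.1% with Ifi204.

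Of the partners of AIM2 in an inflammasome, the adaptor was at or near 0 reads in both libraries and caspase-1 was at a low level. Pycard, the adaptor gene, had 0 reads in shCtrl and 1 in shSetdb1, where 3 reads would be 0.0421 FPKM. Casp1 had 44 and 55 reads (1.57 and 1.96 FPKM), a read ratio of 1.21 (0.799 to 1.84) whose interval holds 1. Il1b and Il18, which encode cytokines cut by caspase-1 and were named after their values were seen, had 0 reads in both libraries and 0 and 1 read. Of the 20 inflammasome and pyroptosis genes found, 7 reached 1 FPKM, of which 1 was at least 2-fold higher and 0 lower, where 6.81% and 4.85% of all genes were, and their median log2 ratio was 0.25. Ninj1, which mediates rupture of the plasma membrane in dying cells, was the highest at 1.10 (1512 and 3266 reads), and Naip2, a receptor for bacterial proteins, the lowest at -0.18.

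On the STING side, Tmem173, which encodes STING, had 1164 and 2376 reads, a log2 ratio of 1.003 that stood under 2-fold with own read totals and with upper-quartile scaling. The gene for the DNA sensor cGAS, Mb21d1, had 89 and 99 reads, a read ratio of 1.08 (0.800 to 1.45). Both were named after their values were seen. Of the 15 cGAS-STING pathway genes found, 11 reached 1 FPKM, 2 were at least 2-fold higher and 1 lower, where 6.81% and 4.85% of all genes were, and their median was 0.20. The highest was Zbp1, a sensor of Z-form nucleic acids, at 3.33 (55 and 1148 reads). The lowest was Slc19a1, a folate carrier that also imports cyclic dinucleotides, at -1.20.

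Of the interferon pathway, Stat2 and Irf9, whose proteins bind the response element in a complex, and Irf7, which encodes a factor that induces interferon genes, had more reads in shSetdb1. Stat2 had 578 and 3051 reads (log2 ratio 2.20), Irf9 640 and 2625 reads (1.88) and Irf7 638 and 21227 reads (4.91, the highest of its list). Of 18 interferon signalling genes found, 17 reached 1 FPKM, 5 of these were at least 2-fold higher and 0 lower, where 6.81% and 4.85% of all genes were, and the median was 0.84. The lowest was the kinase gene Jak2 at -0.82. Of 30 type I interferon response genes, 28 reached 1 FPKM, and 24 of them were at least 2-fold higher and 0 lower, beside the same shares of all genes. Their median log2 ratio was 2.17, with Ifi27l2a highest at 4.34 and Ifit2 lowest at 0.04, so the PYHIN median of 0.95 lay between that of all genes and that of these response genes. Ifnb1, which encodes interferon beta and was named after its values were seen, had 1 read and 5 reads.

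PYHIN genes are abundant in macrophages and dendritic cells, so markers of other cells were read beside them. Of 16 macrophage and dendritic cell markers, 2 reached 1 FPKM, Cd68 (245 and 2360 reads, log2 ratio 3.15) and Cd14 (638 and 1217 reads, 0.90). The summed level of the list was 33.6 FPKM in shCtrl and 143 FPKM in shSetdb1, nearly all of it from these genes. Adgre1, Itgam, Tyrobp, Fcer1g, C1qa, C1qb and Flt3 had 0 reads in both libraries, Csf1r had 1 and 0, Fcgr1 0 and 1, Itgax 1 and 2, and Ptprc 0 and 4. Between these, Mertk had 9 and 41 reads, a read ratio of 4.41 (2.11 to 10.3), Lyz2 23 and 21 and Spi1 23 and 9. Of 9 T, B and NK cell markers, 0 reached 1 FPKM, and their reads added up to 6 and 8. Colon epithelial markers also differed between the libraries. Of the 11, 3 reached 1 FPKM, from Krt18 with a log2 ratio of 1.23 to Krt20 with 2.59. The summed level of all 11 was 43.2 and 128 FPKM. The 9 fibroblast and mesenchymal markers had a summed level of 1529 and 1762 FPKM, with Fn1 highest at 0.49 and Col1a2 lowest at -0.56. What part Cd68, Cd14 and the keratins have in the PYHIN values was not tested.

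Genes with the most similar pair of levels were looked up for the 3 genes called at 2-fold, as the Euclidean distance of log2(FPKM + 1) over the 2 libraries among protein-coding genes outside the family. The nearest to Ifi207 were Glod5 (distance 0.102, with only 8 reads in shCtrl and 66 in shSetdb1) and Plekha4 (0.107). Those nearest to Ifi202b were Dnase2a (0.0555) and Nat6 (0.0614), and those nearest to Ifi204 were Pdzd4 (0.0525) and Eme1 (0.0628). Dnase2a encodes the lysosomal DNA-degrading enzyme DNase II, at 2.85 and 9.26 FPKM, and Eme1 a subunit of a structure-specific DNA nuclease. Functions of the other nearest genes are not given here, so no shared theme is drawn from these. Over 2 values many genes lie close to one another, so the likeness describes these libraries only.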

How the data were processed

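The authors deposited 1 table of FPKM values, per the file name and column headers, for a control and a knockdown library. The submitters' processing notes name HISAT2, featureCounts 1.5.0-p3 and GRCm38, with no role or order. Strand setting, read length and the rule for reads with several matches are not given in the sources used here. FPKM times gene length gave whole reads for 100% of values above 0 (tolerance 0.001), with a common depth of 18731117 in both libraries, so the deposited values keep the 1.03 ratio of read totals. No per-sample column was left out. The members and gene lists were chosen with earlier results of these data known. No p-value was computed, since each group has 1 library. Genes named are the 6 members, the other PYHIN genes, the highest and lowest of each list, partners (Pycard, Casp1, Irf7, Irf9, Stat2 and a further gene that is not reported here), Setdb1 and the 2 genes nearest to each called member. Marker genes were named where they bear on the cells present, and any other gene is marked in the text as named after its values were seen. Of 16 further family names looked for, 8 were found, and 7 others are RefSeq synonyms of genes already counted. A planned comparison of proteins was not made, as no protein table was at hand. The calculations were tested on simulated reads. Alternatives are given in the closing section. Values were computed in pandas 2.3.3 and numpy 2.4.6, intervals in scipy 1.17.1, window edits in edlib and figures in matplotlib 3.10.9, under Python 3.11.15.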

Additional observations from a re-analysis of the deposited data

How the results depend on the processing

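The alternatives were a pseudocount of 0.1, scaling by the median ratio, the upper quartile or own read totals, other filters and thresholds, and sums over loci. Calls by the read ratio were chosen after seeing the data. Leaving out the filter could change no count. With a pseudocount of 1, a gene below 1 FPKM in both libraries cannot reach 2-fold. The neighbours of the cluster, at most 0.0667 FPKM, could not be called under any setting. Both kinds of value are in the count of those that stayed. Over 73 alternative values of the comparisons, 55 stayed within 1.5 times the count or within counting error and 18 moved. A reversal of direction was looked for only in the values of single members, where 0 reversed. At 4-fold, 0 PYHIN members, 0 inflammasome, 1 cGAS-STING, 3 interferon signalling and 15 type I response genes were higher, and the table held 116 genes higher and 56 lower, as that threshold makes them. With a pseudocount of 0.1, these were 1134 and 870, with 9 interferon signalling genes and 1 other PYHIN gene, Ifi211. By the read ratio, 1098 genes were higher and 1024 lower, and by its interval 6 of the 6 PYHIN members were higher. The count of PYHIN members, 3, was 2 under upper-quartile scaling, own read totals and the filter at 5 FPKM, and 4 with the pseudocount of 0.1. Under the first 2 of these settings, 1 cGAS-STING gene was higher in place of 2, since Tmem173 stood at the threshold. The ratio of summed reads was 2.41. As 2 to the power of the members' median log2 ratio it was 1.93, a value that also takes in the pseudocount. The members' median read ratio was 2.19. The ratio of summed reads was 3.24 over Ifi202b, Ifi204 and Ifi207, the members that overlap no locus with reads. These are also the 3 members called at 2-fold, so what overlap does to the ratio cannot be told from this value. Aim2 was left out only for Cadm3, which lies on the opposite strand, shares 0 exon bases and had 1 and 7 reads. Of 30 alternative values of single members, 26 stayed within counting error, and 4 moved without changing direction: Ifi207 to 2.87 and Ifi203 to 1.08 with the pseudocount of 0.1, and with Swiss-Prot sums Ifi204 to 1.48 and Ifi207 to 1.49, where the read ratio of Ifi207 went from 8.16 to 3.19. These 4 moves follow from the arithmetic. A smaller pseudocount enlarges the ratios of low genes, and the Swiss-Prot sum gives Ifi204 and Ifi207 the same reads. The cause of any further move was not tested. No paired analysis was possible because there was 1 library in a group, and none could be left out. With the filter at 5 FPKM, no other PYHIN gene was left for a median. Depth limits Ifi207 in the control library (37 reads) and the silent genes.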
